A study of Sus scrofa with 12 samples.

Results

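Antioxidant, glutathione and redox genes were compared between freshly scraped porcine oviduct epithelial cells and spheroids that such cells had formed in culture. The genes were taken by symbol: superoxide dismutases, glutathione peroxidases, peroxiredoxins, the thioredoxin and glutaredoxin systems, glutathione synthesis and transfer, the NRF2 system with HMOX1, HMOX2, NQO1 and NQO2, metallothioneins, and the iron genes FTL, FTH1 and TFRC. The rule took 52 of the 30461 gene rows of the expression table, and 17202 of those rows carry no symbol and so could not be taken. MSR1 fits the letters of the rule but encodes the macrophage scavenger receptor, not a methionine sulfoxide reductase. GPX1, GPX2, GPX3, PRDX1, GSR and GSTP1, which belong to the same families, stand on no row with that symbol and are not analysed here.

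The study set out to make uniform 3-dimensional spheroids from pig oviduct epithelium on a scalable protocol. Messenger RNA was sequenced from its 3′ end in 12 libraries, 4 in each of 3 groups. Fresh cells are single cells scraped from the oviduct. DMEM/F12 spheroids (library names with FBS) and incubation medium spheroids (library names with Diff) are cell clusters formed in those media, whose composition the labels do not give. The labels name no strain, age, genotype or time in culture, and they do not say whether libraries of a group come from separate animals, so p-values measure the spread between these libraries, which may be technical. Libraries with the same number deviated together across the groups, and values under a fit that pairs them are given where they change a call.

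Cells keep superoxide and peroxide low in steps. Superoxide dismutases turn superoxide into hydrogen peroxide, which catalase splits into water and oxygen. Glutathione peroxidases and peroxiredoxins remove peroxide with electrons that thioredoxin and glutathione carry from NADPH. The transcription factor NRF2 (gene NFE2L2) drives many of these genes and is held back by KEAP1, while metallothioneins bind zinc and copper and ferritin stores iron in a form that does not feed radical chemistry. In the oviduct these systems are known for shielding gametes and early embryos from oxidants.

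Total counts ranged from 5045218 to 8603809 per library, and all 8 spheroid libraries were deeper than all 4 fresh ones. Levels are in CPM, the usual scaling of counts by library size. Epithelial markers, 6 rows, summed to 3727 to 4372 CPM in fresh cells, 5956 to 7392 in DMEM/F12 spheroids and 4141 to 6147 in incubation medium spheroids. Of the 6 rows, 5 rose and 1 fell in DMEM/F12 spheroids, and 4 rose and 1 fell in incubation medium spheroids. CDH1, KRT18 and both KRT8 rows rose in each medium. In every fresh library 1 KRT8 row was at or under the floor of 3 counts. Multiciliated cell markers, 5 of 9 listed, all fell, in sum from 1003 to 1145 CPM in fresh cells to 117 to 298 in DMEM/F12 and 111 to 210.0 in incubation medium spheroids. Secretory cell markers, 3 of 7 listed, summed to 18938 to 29977, 984 to 2015 and 963 to 2009.9 CPM in that order. OVGP1 and SLPI fell and MUC1 rose in both media. Stroma and smooth muscle markers, 8 of 12 listed, summed to 1699.9 to 2224 CPM in fresh cells, 1088 to 1290.4 in DMEM/F12 spheroids and 240.1 to 548 in incubation medium spheroids. DES was at or under the floor of 3 counts everywhere. MGP held most of that sum in fresh cells (mean 1612 ± 293 CPM, against 35.6 ± 28.8 and 6.84 ± 0.994, ± SD, n = 4) and TAGLN most of it in spheroids (266 ± 54.5, 1119.9 ± 73.8 and 380.2 ± 125). Of 7 tested, 1 rose and 3 fell in DMEM/F12 while 1 rose and 5 fell in incubation medium. Leukocyte markers, 9 of 13 listed and MS4A1 at or under the floor everywhere, summed to 452 to 498, 430.4 to 495 and 527 to 615 CPM in the same order. Nearly all of it came from CD79A (457 ± 21.8, 438 ± 33.1 and 541 ± 42.7). S100A8 and S100A9 rose and PTPRC fell in both media. Endothelial markers, 6 of 7 listed and ERG and VWF at or under the floor, summed to 41.8 to 57.6, 136 to 252 and 91.2 to 148 CPM. Most of it came from KDR and CDH5, which rose in both media, and PECAM1 fell. The part of these markers in the results on redox genes was not tested. In bulk samples fewer cells of a type and less RNA per cell cannot be told apart.

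Of the 52 genes, 47 passed the filter on low counts and entered the fit of 14070 genes. TXNDC8 and GPX5, an epididymal peroxidase, had 0 counts in every library. GSTT4 and GSTO2, both glutathione transferases, ranged between 0.123 and 1.31 CPM and between 0.116 and 1.39 CPM, and MSR1 between 0.179 and 1.97 CPM. A gene is said to have risen or fallen where its Benjamini-Hochberg adjusted p from edgeR's quasi-likelihood test, taken over all 14070 genes, was under 0.05. Log2 fold changes are followed by their standard error (SE).

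In DMEM/F12 spheroids against fresh cells, 23 of the 47 genes rose and 12 fell. Over all tested genes 35.1% rose and 35.7% fell. The median log2 fold change of the redox genes was 0.38, with a range from -1.91 to 2.80, against -0.01 for all genes tested. Libraries of the 2 groups stood apart for 32 of the 47, against 65.4% of all genes. In incubation medium spheroids against fresh cells, 25 rose and 15 fell, where 35.8% of all genes rose and 35.8% fell. Here the median was 0.37, with a range from -2.11 to 2.89, and 39 of the 47 did not overlap, against 64.9% of all genes. Both comparisons use the same 4 fresh libraries, so their values are set side by side below and neither stands as a repeat of the other.

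**Figure D1:**
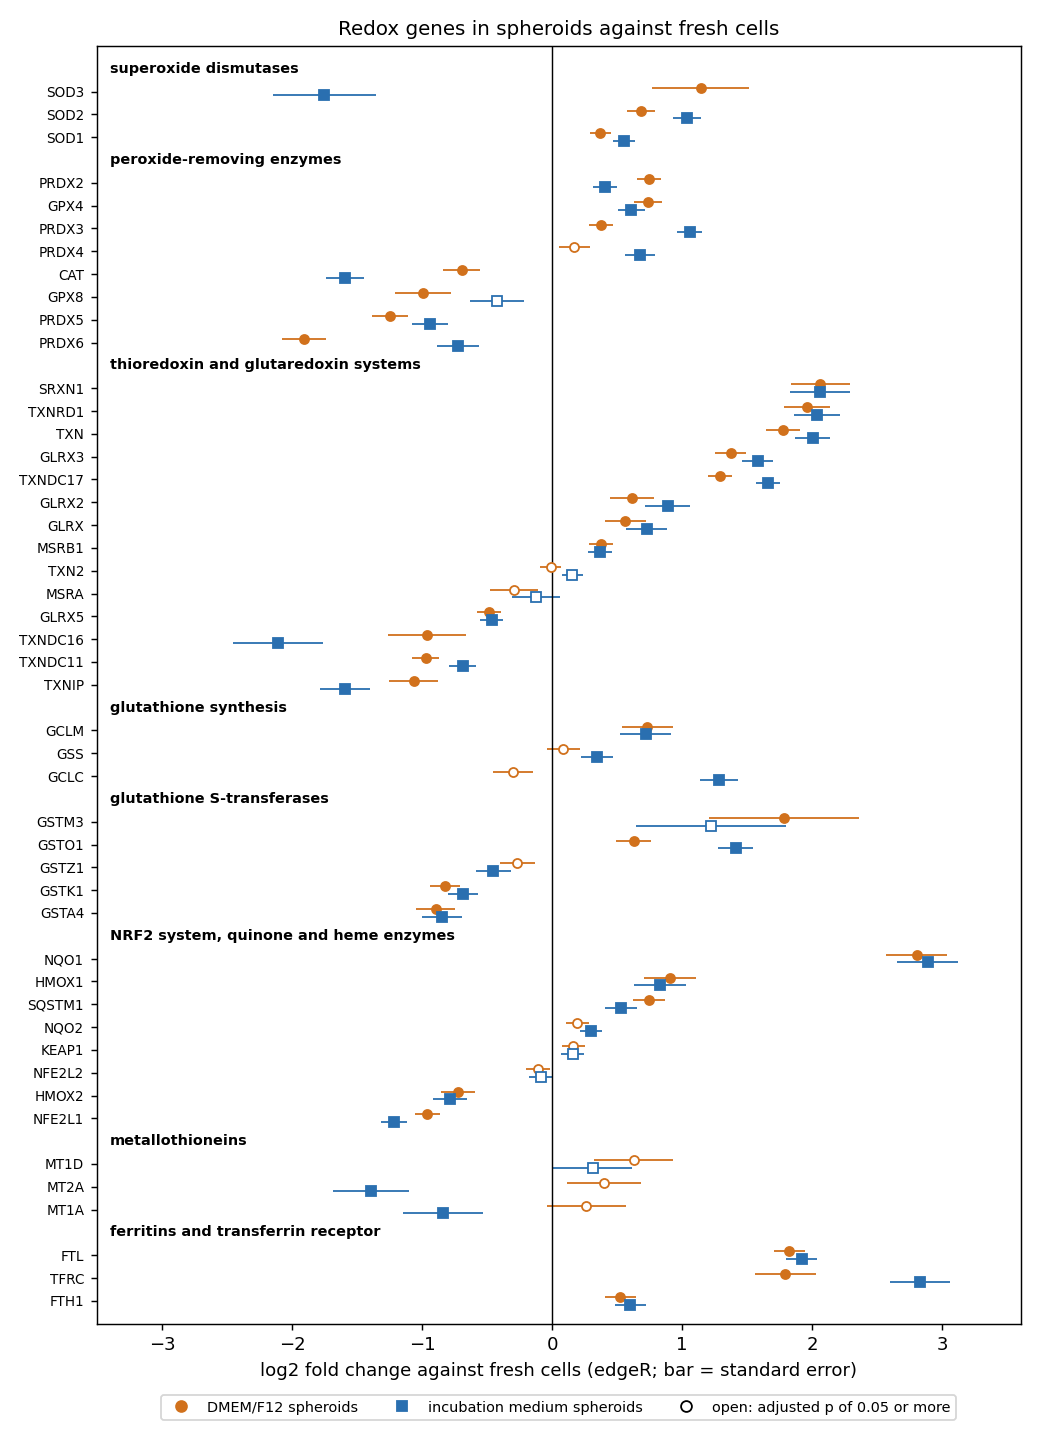
Log2 fold change (x axis, log2 units) against fresh cells of the 47 tested redox genes, grouped by role and ordered within a role by the DMEM/F12 value; circles are DMEM/F12 spheroids, squares incubation medium spheroids, bars the standard error from edgeR, and open symbols miss an adjusted p of 0.05. NQO1 lies farthest to the right in both media at 2.80 and 2.89, and the SOD3 symbols lie on opposite sides of 0.

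The superoxide dismutases differ in where the enzyme works and differed here in direction. The cytosolic enzyme SOD1 and the mitochondrial enzyme SOD2 rose in both spheroid media, while SOD3 (identifier ENSSSCG00025006411), the secreted enzyme of the extracellular space, rose in DMEM/F12 spheroids and fell in incubation medium spheroids. SOD1 measured 244, 232, 228 and 197 CPM in fresh libraries 1 to 4, 301, 296, 289.8 and 279.8 CPM in DMEM/F12 spheroids and 355, 336, 333 and 298 CPM in incubation medium spheroids. Every spheroid library lay above every fresh one. Its log2 fold change against fresh cells was 0.37 (SE 0.082, adjusted p 0.000939) in DMEM/F12 and 0.55 (SE 0.082, adjusted p 2.80e-05) in incubation medium. SOD2 measured 69.1, 86.3, 70.5 and 72.1 CPM in fresh cells, 129, 131, 103 and 115 in DMEM/F12 and 147, 179, 143 and 143 in incubation medium. Fresh, DMEM/F12 and incubation medium libraries formed 3 ranges with no overlap, at 0.68 (SE 0.11, adjusted p 5.64e-05) and 1.04 (SE 0.11, adjusted p 9.40e-07) against fresh cells. The SOD2 difference between the media, 0.36 (SE 0.11, adjusted p 0.0237), missed the threshold without DMEM/F12 replicate 3 (log2 0.29), without DMEM/F12 replicate 4 (0.34), without incubation medium replicate 2 (0.27) and with unscaled library totals (0.26), over alternatives whose adjusted p ran from 0.00223 to 0.110.

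SOD3 gave the largest difference between the media among the 47 genes. It measured 74.7, 61.7, 39.8 and 119.7 CPM in fresh cells, 277, 127, 84.2 and 163 CPM in DMEM/F12 spheroids and 17.1, 15.1, 19.4 and 36.4 CPM in incubation medium spheroids. All incubation medium libraries lay below all fresh and all DMEM/F12 libraries, whereas fresh replicate 4 lay above DMEM/F12 replicate 3. Against DMEM/F12 spheroids SOD3 was 7.42-fold lower in incubation medium, a log2 fold change of -2.89 (SE 0.40, adjusted p 0.000161), and against fresh cells it was -1.75 (SE 0.40, adjusted p 0.00120). The rise in DMEM/F12 was 1.14 (SE 0.37, adjusted p 0.0132), and each DMEM/F12 library lay above the fresh library of the same number. The call was lost without DMEM/F12 replicate 1, where the rise was 0.77 on the log2 scale with an adjusted p of 0.0549. Adjusted p over the alternatives ran from 0.000381 to 0.0549. The summed stroma and smooth muscle markers were also lowest in incubation medium spheroids (240.1 to 548 CPM, against 1088 to 1290.4 in DMEM/F12). TAGLN, MGP, COL1A1 and PDGFRA were called lower between the media. Their part in the SOD3 difference was not tested.

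**Figure D2:**
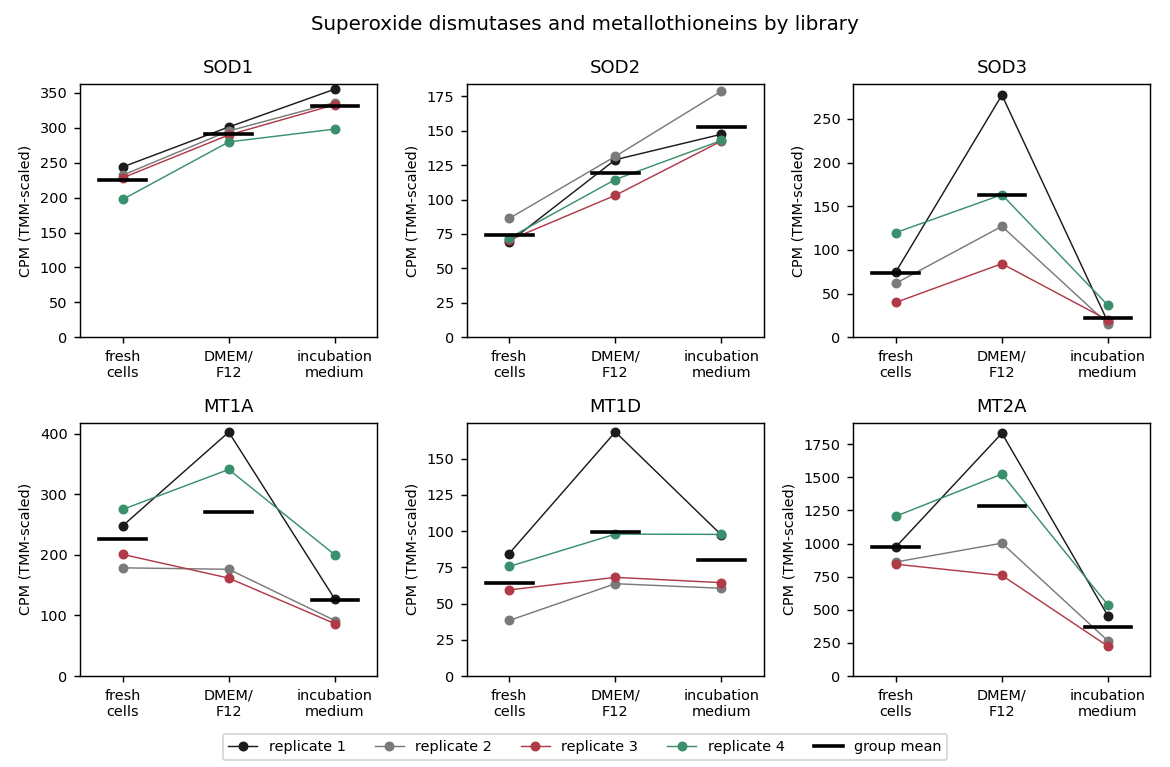
CPM (y axis, scaled by TMM, from 0) of the superoxide dismutases and metallothioneins in each library; thin lines join libraries with the same replicate number and thick bars are group means. SOD1 and SOD2 climb from fresh cells to incubation medium spheroids, SOD3 and MT2A are lowest in incubation medium spheroids, and replicates 1 and 4 lie above 2 and 3 for all 3 metallothioneins.

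Of the 8 tested genes for peroxide removal, 3 rose and 4 fell in DMEM/F12 spheroids (over all genes 35.1% and 35.7%), and 4 rose and 3 fell in incubation medium spheroids (over all genes 35.8% and 35.8%). Catalase (CAT), the peroxisomal enzyme that splits hydrogen peroxide into water and oxygen, measured 100.1, 88.4, 75.0 and 72.1 CPM in fresh cells, 62.2, 50.9, 42.6 and 51.6 in DMEM/F12 and 34.4, 29.2, 23.9 and 23.8 in incubation medium. Its 3 groups did not overlap, and all 3 differences were called: -0.70 (SE 0.14, adjusted p 0.000560) and -1.59 (SE 0.15, adjusted p 3.08e-07) against fresh cells, and -0.90 (SE 0.15, adjusted p 0.000599) between the media. PRDX6, which reduces oxidised phospholipids with glutathione, measured 163, 208, 186 and 187 CPM in fresh cells, 49.6, 48.2, 57.2 and 43.3 in DMEM/F12 and 78.9, 106, 111 and 156 in incubation medium. Here DMEM/F12 spheroids were lowest and incubation medium spheroids stood in between with no overlap, at -1.91 (SE 0.17, adjusted p 1.65e-07) and -0.72 (SE 0.16, adjusted p 0.00102) against fresh cells and 1.19 (SE 0.16, adjusted p 0.000164) between the media. PRDX6 had fractional counts in 11 of 12 libraries, so part of its reads was shared with other features and its level is uncertain. This limit is not particular to PRDX6, since only 13 of the 47 tested genes had whole counts in every library. Among the rest, GLRX had fractional counts in 9 of 12 libraries, PRDX3 in 8, GPX4 in 7 and NFE2L1 in 6.

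The other peroxiredoxins differed in direction among themselves. PRDX5, found in mitochondria, peroxisomes and cytosol, measured 329, 295, 292 and 288 CPM in fresh cells, 171, 107, 105 and 124 in DMEM/F12 and 179, 147, 162 and 140.1 in incubation medium. All spheroid libraries lay below the fresh ones, at -1.25 (SE 0.14, adjusted p 1.88e-06) and -0.94 (SE 0.14, adjusted p 2.71e-05). Its difference between the media was 0.31 (SE 0.14, adjusted p 0.120). It was called once libraries were paired by number (0.32, adjusted p 0.0182) and without DMEM/F12 replicate 1 (0.49), over alternatives with adjusted p from 0.00435 to 0.302. PRDX3, the mitochondrial peroxiredoxin, measured 118, 106, 117 and 104 CPM in fresh cells, 165, 141, 125 and 147 in DMEM/F12 and 244, 244, 231 and 207 in incubation medium. It stepped up from group to group without overlap, by 0.38 (SE 0.094) and 1.06 (SE 0.094) against fresh cells and by 0.68 (SE 0.092, adjusted p 0.000137) between the media. PRDX4, the peroxiredoxin of the endoplasmic reticulum, measured 221, 175, 246 and 163 CPM in fresh cells, 247, 213, 230.2 and 216 in DMEM/F12 and 314, 307, 316 and 348 in incubation medium. The incubation medium libraries lay above all others, with 0.67 (SE 0.12, adjusted p 0.000119) against fresh cells and 0.50 (SE 0.12, adjusted p 0.00564) against DMEM/F12. Fresh cells and DMEM/F12 spheroids overlapped (log2 0.17, adjusted p 0.200), a difference called without fresh replicate 3 (0.29, adjusted p over alternatives from 0.0298 to 0.514). PRDX2, a cytosolic peroxiredoxin, measured 175, 171, 185 and 212 CPM in fresh cells, 291, 321, 347 and 285 in DMEM/F12 and 249, 228, 261 and 246 in incubation medium. It was highest in DMEM/F12, with 0.74 (SE 0.090) and 0.41 (SE 0.090) against fresh cells and -0.34 (SE 0.089, adjusted p 0.0126) between the media.

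Glutathione peroxidase 4 (GPX4), which clears lipid peroxides from membranes and guards against ferroptosis, measured 154, 153, 157 and 143 CPM in fresh cells, 254, 228, 309 and 219.8 in DMEM/F12 and 228, 237, 257 and 204 in incubation medium. Both spheroid groups lay above fresh cells, by 0.73 (SE 0.11, adjusted p 2.40e-05) and 0.61 (SE 0.11, adjusted p 0.000133). GPX8, a membrane peroxidase of the endoplasmic reticulum, measured 31.5, 31.2, 28.2 and 23.9 CPM in fresh cells, 14.7, 15.6, 9.0 and 18.3 in DMEM/F12 and 20.5, 16.8, 17.7 and 30.6 in incubation medium. It fell in DMEM/F12 spheroids by 0.99 on the log2 scale (SE 0.21, adjusted p 0.000802). In incubation medium it overlapped fresh cells (log2 -0.43, adjusted p 0.0811). Pairing by number called this difference (-0.46, adjusted p 0.0294), as did thinned counts and a fit of only the groups compared. It was also called without DMEM/F12 replicate 3 or incubation medium replicate 4 (adjusted p over alternatives from 0.00892 to 0.225). That between the media was called with pairing (0.57, adjusted p 0.0255), by DESeq2 and without DMEM/F12 replicate 4 (adjusted p over alternatives from 0.0255 to 0.207).

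In the thioredoxin and glutaredoxin systems, 8 of 14 tested genes rose and 4 fell in each spheroid medium against fresh cells. Over all genes 35.1% rose and 35.7% fell in DMEM/F12, and 35.8% and 35.8% in incubation medium. Thioredoxin (TXN), the cytosolic protein that returns oxidised thiols to their reduced form, measured 558, 520.1, 474 and 433 CPM in fresh cells, 1558, 1605, 2134 and 1497 in DMEM/F12 and 1865, 1961, 2386 and 1739.8 in incubation medium. Every spheroid library held more than any fresh library, 3.42-fold in DMEM/F12 (log2 1.77, SE 0.13, adjusted p 3.15e-08) and 4.00-fold in incubation medium (log2 2.00, SE 0.13, adjusted p 1.08e-08). TXNRD1, the reductase that recharges thioredoxin from NADPH, measured 38.6, 30.7, 25.1 and 23.9 CPM in fresh cells, 101, 113, 151 and 96.3 in DMEM/F12 and 112, 123, 145 and 106 in incubation medium. It rose by 1.96 (SE 0.17, adjusted p 1.96e-07) and 2.03 (SE 0.17, adjusted p 1.33e-07) on the log2 scale. SRXN1, sulfiredoxin, which rescues overoxidised peroxiredoxins, measured 26.8, 22.2, 8.6 and 14.7 CPM in fresh cells, 92.7, 66.6, 76.6 and 68.2 in DMEM/F12 and 74.2, 72.3, 78.8 and 77.8 in incubation medium. The fresh libraries spread from 8.6 to 26.8 CPM, yet all stayed below the spheroids, and the log2 fold changes were 2.06 (SE 0.23, adjusted p 1.83e-06) and 2.06 (SE 0.23, adjusted p 1.82e-06). TXNIP, which binds thioredoxin and blocks it, went the other way, at 994, 1272, 1075 and 1459.7 CPM in fresh cells, 682, 622, 379 and 609.9 in DMEM/F12 and 519, 371, 309.7 and 390.0 in incubation medium. It fell by 1.07 (SE 0.19, adjusted p 0.000149) and by 1.59 (SE 0.19, adjusted p 3.62e-06) on the log2 scale. Its further difference between the media, -0.53, had an adjusted p of 0.0529. Pairing libraries by number called it (-0.52, adjusted p 0.0103), as did DESeq2, unscaled library totals, no filter and thinned counts. It was also called without DMEM/F12 replicate 3 and without incubation medium replicate 1 (adjusted p over alternatives from 0.00842 to 0.145).

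For mitochondrial thioredoxin, TXN2, fresh cells averaged 85.0 ± 6.0 CPM (± SD, n = 4), against 84.4 ± 6.79 in DMEM/F12 and 94.6 ± 2.17 in incubation medium, and TXN2 passed the test in no comparison (log2 -0.011, 0.15 and 0.17 between the media). Its difference in incubation medium was called without fresh replicate 1 or DMEM/F12 replicate 1 (0.20 and 0.17, adjusted p over alternatives from 0.0464 to 0.203). Fractional counts of TXN2 in 12 of 12 libraries make its level uncertain. Glutaredoxins reduce proteins that carry bound glutathione or help to build iron-sulfur clusters. GLRX3, a cytosolic cluster carrier, measured 55.3, 55.1, 59.8 and 53.9 CPM in fresh cells, 123, 155, 162 and 140.5 in DMEM/F12 and 139.9, 187, 193 and 150.3 in incubation medium. All spheroid libraries lay above the fresh ones, by 1.37 (SE 0.12, adjusted p 1.40e-07) and 1.58 (SE 0.12, adjusted p 3.52e-08) on the log2 scale. The classical enzyme GLRX rose by 0.56 and 0.73 and the mitochondrial GLRX2 by 0.61 and 0.89 on the log2 scale. GLRX5, which serves cluster assembly in mitochondria, fell from 50.6 ± 5.08 CPM in fresh cells to 36.2 ± 1.66 and 36.7 ± 2.46 (log2 -0.49 and -0.47). TXNDC17, a small cytosolic thioredoxin-like protein, climbed from 67.4 ± 7.29 CPM in fresh cells to 165 ± 10.1 in DMEM/F12 and 212 ± 15 in incubation medium, and its difference between the media was called (log2 0.37, SE 0.087, adjusted p 0.00694). TXNDC11, a thioredoxin-like protein of the endoplasmic reticulum, measured 65.4, 64.4, 54.6 and 54.9 CPM in fresh cells, 32.4, 26.5, 31.0 and 32.2 in DMEM/F12 and 42.6, 33.8, 36.4 and 35.7 in incubation medium. Fresh, incubation medium and DMEM/F12 libraries descended in that order with no overlap, log2 -0.97 (SE 0.10) and -0.69 (SE 0.10) against fresh cells, and between the media 0.29 (adjusted p 0.0566), which pairing by number called (0.28, adjusted p 0.0305, adjusted p over alternatives from 0.0305 to 0.167). TXNDC16 stayed at 0.358 to 3.33 CPM over all libraries. It fell by 0.96 and 2.11 on the log2 scale against fresh cells, and its call between the media (log2 -1.14, adjusted p 0.0310) was lost under 8 of 18 alternatives that could fit it (adjusted p over alternatives from 0.0194 to 0.0917), 6 of which left out DMEM/F12 replicate 1, 3 or 4 or incubation medium replicate 1, 2 or 3. Of the methionine sulfoxide reductases, which repair oxidised methionine, MSRB1 rose by 0.38 and 0.37 on the log2 scale and MSRA, at -0.29 and -0.13, did not pass the test.

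**Figure D3:**
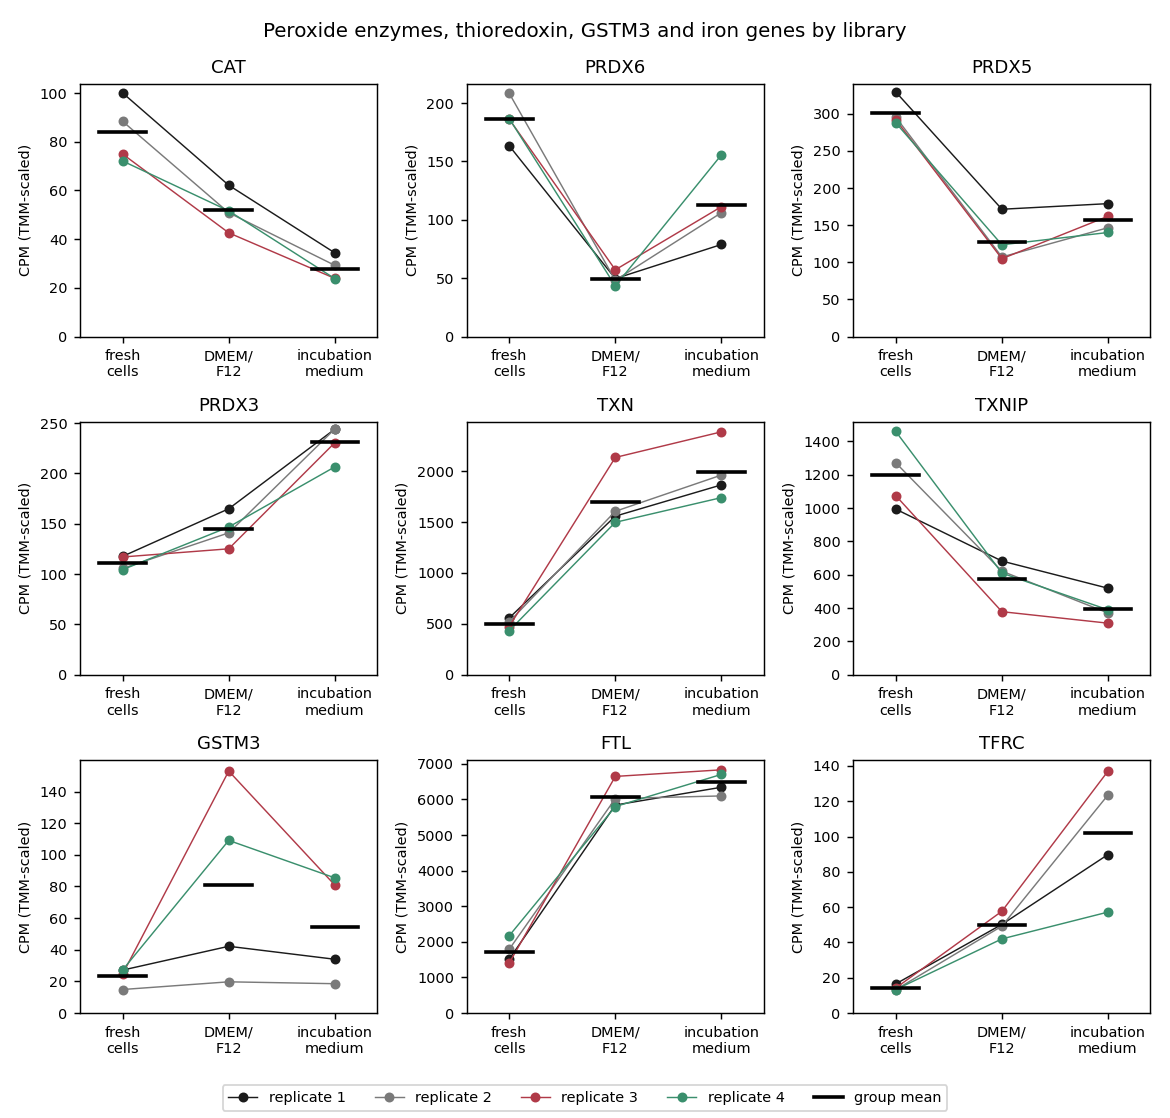
CPM (y axis, scaled by TMM, from 0) of 4 peroxide-removing enzymes, thioredoxin and its inhibitor TXNIP, GSTM3 and the iron genes FTL and TFRC in each library; thin lines join libraries with the same replicate number and thick bars are group means. CAT descends and PRDX3 climbs from fresh cells to incubation medium spheroids, PRDX6 is lowest in DMEM/F12, and GSTM3 spreads from 19.7 to 153 CPM within DMEM/F12 spheroids.

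Glutathione is made in a pair of steps, and the first, by glutamate-cysteine ligase, sets the rate. The catalytic subunit GCLC measured 24.0, 24.4, 18.9 and 18.6 CPM in fresh cells, 15.9, 18.7, 21.6 and 13.6 in DMEM/F12 and 52.3, 49.3, 61.9 and 46.2 in incubation medium. Its incubation medium libraries stood above all others, 3.01-fold over DMEM/F12 (log2 1.59, SE 0.15, adjusted p 6.84e-06) and 2.44-fold over fresh cells (log2 1.28, SE 0.15, adjusted p 2.29e-06). Fresh cells and DMEM/F12 spheroids overlapped (log2 -0.30, SE 0.15, adjusted p 0.0905), and pairing by number called GCLC lower in DMEM/F12 (-0.31, adjusted p 0.0395). So did thinned counts (-0.36) and leaving out DMEM/F12 replicate 3 (-0.40), with adjusted p over alternatives from 0.0306 to 0.291. The modifier subunit GCLM measured 18.4, 11.8, 16.5 and 15.1 CPM in fresh cells, 36.4, 22.3, 23.0 and 21.1 in DMEM/F12 and 32.7, 22.8, 24.6 and 21.5 in incubation medium. The spheroid groups overlapped each other and lay above fresh cells, with log2 fold changes of 0.73 (SE 0.20, adjusted p 0.00430) and 0.72 (SE 0.20, adjusted p 0.00488) against fresh cells and -0.015 (SE 0.19, adjusted p 0.967) between the media. GSS, the synthetase of the final step, measured 31.3, 22.4, 26.7 and 26.7 CPM in fresh cells, 27.0, 25.3, 32.5 and 29.1 in DMEM/F12 and 30.8, 34.6, 39.9 and 30.6 in incubation medium, ranges that overlap. Its rise in incubation medium, 0.34 (SE 0.12, adjusted p 0.0224), missed the threshold without fresh replicate 2 (0.27 on the log2 scale with an adjusted p of 0.0753) and without incubation medium replicate 3 (0.27 on the log2 scale with an adjusted p of 0.0655), with adjusted p from 0.00886 to 0.0753 over the alternatives.

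Of 5 tested glutathione S-transferases, which join glutathione to reactive compounds, 2 rose and 2 fell in DMEM/F12 spheroids (over all genes 35.1% and 35.7%). In incubation medium spheroids 1 rose and 3 fell (over all genes 35.8% and 35.8%). GSTO1, the omega-class enzyme with thiol transferase activity, measured 78.0, 71.9, 89.6 and 78.6 CPM in fresh cells, 99, 122, 157 and 114 in DMEM/F12 and 193, 211, 251 and 191 in incubation medium. The 3 groups climbed without overlap, by 0.63 (SE 0.13, adjusted p 0.000753) and 1.41 (SE 0.14, adjusted p 3.88e-07) against fresh cells and 0.78 (SE 0.13, adjusted p 0.000665) between the media. GSTA4, which clears the lipid peroxidation product hydroxynonenal, fell from 33.0 ± 7.05 CPM in fresh cells to 17.7 ± 1.74 in DMEM/F12 and 18.4 ± 2.58 in incubation medium (log2 -0.90 and -0.85). GSTK1, a kappa-class enzyme of mitochondria and peroxisomes, fell from 42.8 ± 5.81 CPM to 24.2 ± 0.904 and 26.6 ± 3.68 (log2 -0.82 and -0.69). GSTZ1, which takes part in tyrosine breakdown, was called in incubation medium (log2 -0.45, adjusted p 0.00776) and not in DMEM/F12 (log2 -0.27, adjusted p 0.0857), and its difference between the media was -0.18 (adjusted p 0.348). In DMEM/F12 it was called without DMEM/F12 replicate 1 (-0.37) and with thinned counts (-0.35), with adjusted p over alternatives from 0.0183 to 0.265.

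GSTM3, a mu-class transferase, was the most uneven of the transferases among libraries of a group. It measured 27.2, 14.9, 24.7 and 27.2 CPM in fresh cells, 42.2, 19.7, 153 and 109 in DMEM/F12 and 34.0, 18.6, 80.9 and 85.4 in incubation medium, with replicate 2 lowest in each group. Its rise in DMEM/F12 (log2 1.78, SE 0.58, adjusted p 0.0127) was lost without DMEM/F12 replicate 3 (1.30 on the log2 scale with an adjusted p of 0.0527, adjusted p over alternatives from 0.000137 to 0.0527). In incubation medium it was 1.22 (SE 0.58, adjusted p 0.0718) and was called with libraries paired by number (1.04, adjusted p 0.00310). It was also called without a filter, with only the groups compared and over genes with whole counts. So it was without DMEM/F12 replicate 2 or 3 or incubation medium replicate 2 (adjusted p over alternatives from 0.00310 to 0.181).

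Of the 8 genes of the NRF2 system with its quinone and heme enzymes, SQSTM1, NQO1 and HMOX1 rose and NFE2L1 and HMOX2 fell in both media, and NQO2 also rose in incubation medium. These are 3 up and 2 down in DMEM/F12 (over all genes 35.1% and 35.7%) and 4 up and 2 down in incubation medium (over all genes 35.8% and 35.8%). NFE2L2 and KEAP1 did not pass the test in any comparison. NFE2L2, which encodes NRF2, measured 172, 161, 150.1 and 161 CPM in fresh cells, 176, 143, 139 and 140.0 in DMEM/F12 and 166, 141, 145 and 154 in incubation medium. The 3 ranges overlapped, with log2 fold changes of -0.11 (SE 0.091, adjusted p 0.303) and -0.085 (SE 0.091, adjusted p 0.414) against fresh cells. KEAP1, its inhibitor, measured 62.7, 55.2, 47.7 and 53.7 CPM in fresh cells, 65.2, 59.7, 56.6 and 63.9 in DMEM/F12 and 61.7, 62.7, 62.9 and 57.8 in incubation medium, and also overlapped (log2 0.16, SE 0.088, adjusted p 0.114 in DMEM/F12 and log2 0.16, SE 0.088, adjusted p 0.117 in incubation medium). KEAP1 was called higher in DMEM/F12 and in incubation medium without fresh replicate 1 (0.24 and 0.24) and over genes with whole counts (0.24 and 0.25). It was also called in DMEM/F12 with unscaled library totals (0.24), with adjusted p over alternatives from 0.0246 to 0.302 and from 0.0220 to 0.552. SQSTM1, the autophagy receptor p62 that can bind KEAP1 and is itself an NRF2 target, measured 300.4, 373, 289.8 and 292 CPM in fresh cells, 562, 506, 534 and 497 in DMEM/F12 and 568, 392, 385 and 462 in incubation medium. All spheroid libraries lay above all fresh ones (log2 0.74, SE 0.12, adjusted p 8.41e-05 in DMEM/F12 and log2 0.53, SE 0.12, adjusted p 0.00145 in incubation medium). NFE2L1, the related factor that controls proteasome genes, measured 325, 382, 406 and 361 CPM in fresh cells, 209, 165, 202 and 181 in DMEM/F12 and 175, 156, 158 and 145 in incubation medium. It fell by 0.96 and 1.22 on the log2 scale (SE 0.10 and 0.10). Between the media NFE2L1 was -0.26 (adjusted p 0.0686), and pairing libraries by number called it (-0.25, adjusted p 0.0478). So did unscaled library totals (-0.35) and leaving out DMEM/F12 replicate 2 (-0.31), with adjusted p over alternatives from 0.0203 to 0.182.

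NQO1, the quinone reductase long used as a readout of NRF2, gave the largest rise among the 47 genes in both media. It measured 4.70, 3.77, 3.37 and 3.14 CPM in fresh cells, 27.9, 26.5, 34.9 and 16.2 in DMEM/F12 and 27.4, 23.5, 32.1 and 28.6 in incubation medium. That is 6.98-fold over fresh cells in DMEM/F12 (log2 2.80, SE 0.24, adjusted p 1.07e-07) and 7.40-fold in incubation medium (log2 2.89, SE 0.23, adjusted p 7.72e-08), with no overlap. NQO2, a quinone reductase that does not use NADPH, measured 30.3, 32.5, 35.3 and 37.0 CPM in fresh cells, 38.7, 41.1, 35.2 and 39.3 in DMEM/F12 and 40.4, 42.4, 39.5 and 43.8 in incubation medium. It rose in incubation medium (log2 0.30, SE 0.087, adjusted p 0.00650), a call that was lost when counts were thinned to the smallest library (0.19 on the log2 scale with an adjusted p of 0.0826, adjusted p over alternatives from 0.00418 to 0.0826), and was 0.19 in DMEM/F12 (adjusted p 0.0601). The latter was called under 7 alternatives, 4 of which left out DMEM/F12 replicate 3, fresh replicate 4 or incubation medium replicate 3 or 4 (adjusted p over alternatives from 0.0255 to 0.155). HMOX1, the inducible heme oxygenase, measured 13.8, 14.2, 12 and 10 CPM in fresh cells, 21.9, 26.1, 30.3 and 15.6 in DMEM/F12 and 18.4, 28.3, 20.1 and 22.3 in incubation medium. It rose by 0.91 (SE 0.20, adjusted p 0.00104) and 0.83 (SE 0.20, adjusted p 0.00205) on the log2 scale. The constitutive heme oxygenase HMOX2 fell from 75.7 ± 8.57 CPM in fresh cells to 45.8 ± 4.72 in DMEM/F12 and 43.9 ± 8.28 in incubation medium (log2 -0.72 and -0.79). Between the media, where 12.7% of all genes were higher and 12.3% lower, 0 of these 8 genes passed edgeR's test. DESeq2 called 0 of them, and 1 had an unadjusted p under 0.05 in edgeR. Other alternatives called NFE2L1 lower in incubation medium, as given above. SQSTM1 was called lower there without incubation medium replicate 1 (-0.35, adjusted p 0.0325, adjusted p over alternatives from 0.0325 to 0.466).

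**Figure D4:**
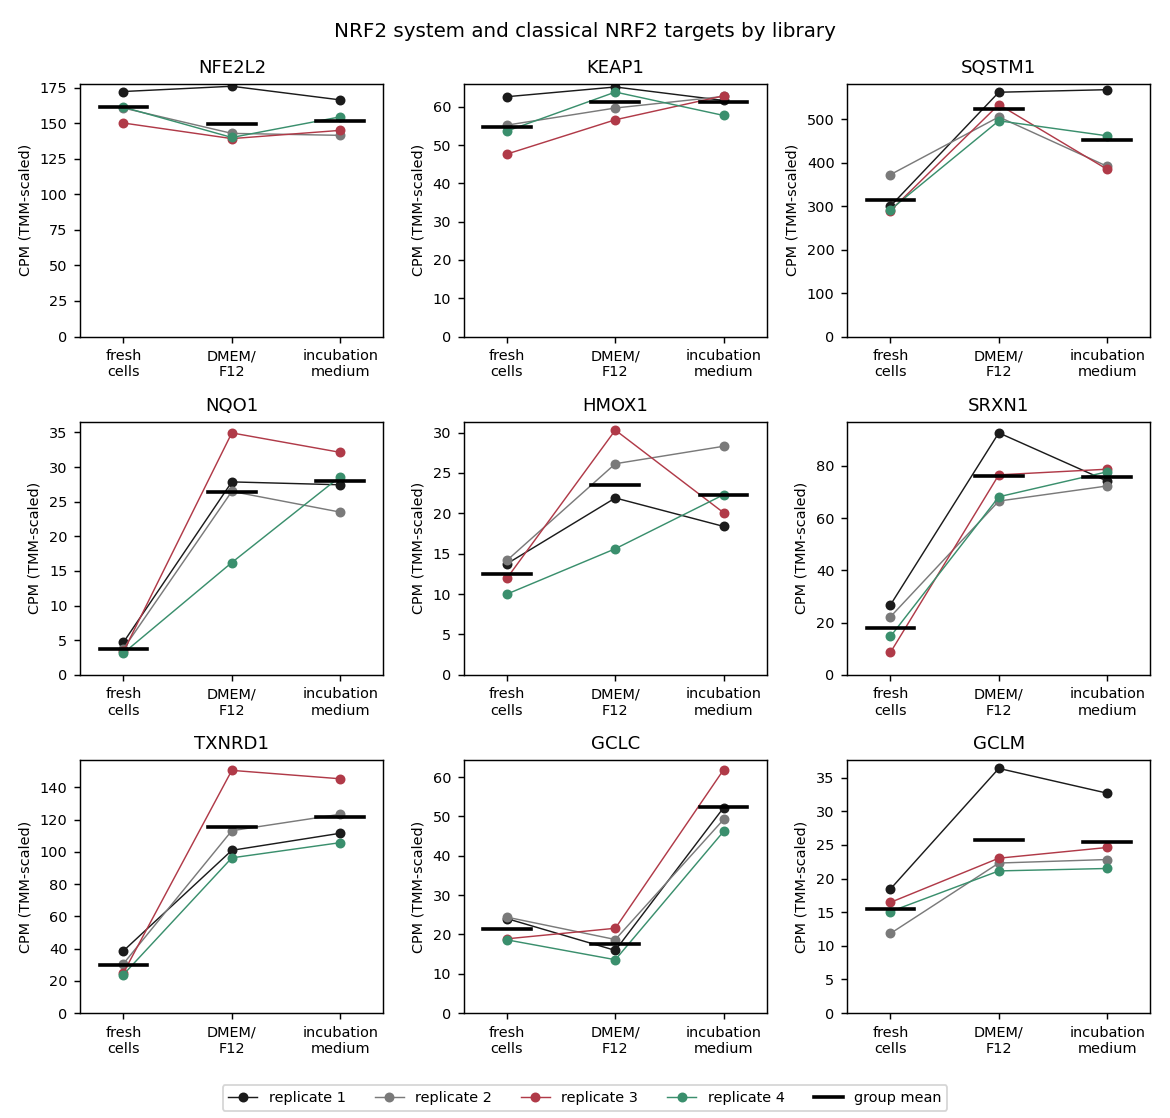
CPM (y axis, scaled by TMM, from 0) of NFE2L2, KEAP1, SQSTM1 and 6 classical NRF2 targets in each library; thin lines join libraries with the same replicate number and thick bars are group means. NFE2L2 and KEAP1 overlap across the groups, NQO1, SRXN1, TXNRD1, HMOX1, SQSTM1 and GCLM are higher in both spheroid groups, and GCLC is high in incubation medium spheroids, from 46.2 to 61.9 CPM.

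Of the 3 metallothioneins, MT2A and MT1A fell in incubation medium spheroids, where the stroma and smooth muscle markers were also lowest; the part of those markers was not tested. MT2A measured 974, 861, 845 and 1206 CPM in fresh cells, 1833, 1003, 759.9 and 1525 in DMEM/F12 and 453, 265, 225 and 536 in incubation medium. All incubation medium libraries lay below the rest, -1.39 (SE 0.29, adjusted p 0.000618) against fresh cells and -1.79 (SE 0.29, adjusted p 0.000580) against DMEM/F12. MT1A measured 248, 179, 201 and 275 CPM in fresh cells, 403, 176, 162 and 341 in DMEM/F12 and 127, 91.7, 86.5 and 200 in incubation medium, ranges that overlap. It fell in incubation medium against fresh cells (log2 -0.84, SE 0.31, adjusted p 0.0246) and against DMEM/F12 (log2 -1.10, SE 0.31, adjusted p 0.0175). The call against fresh cells was lost without fresh replicate 1 or 4 or incubation medium replicate 2 or 3 (log2 -0.78, -0.73, -0.69 and -0.67, adjusted p over alternatives from 6.67e-05 to 0.0794). That against DMEM/F12 was lost without DMEM/F12 replicate 1 or 4 or incubation medium replicate 2 or 3 (log2 -0.84, -0.97, -0.97 and -0.95, adjusted p over alternatives from 8.06e-05 to 0.0599). MT1D measured 84.6, 38.4, 59.5 and 75.6 CPM in fresh cells, 168, 63.8, 68.1 and 98.0 in DMEM/F12 and 97.3, 60.6, 64.5 and 97.8 in incubation medium and passed the test in no comparison. Its difference in DMEM/F12 from fresh cells was called without a filter, without fresh replicate 1 and without DMEM/F12 replicate 2 or 3. Replicates 1 and 4 exceeded 2 and 3 in every group for all 3 genes, and with libraries paired by number MT1D was higher in DMEM/F12 (0.59, adjusted p 0.000928, adjusted p over alternatives from 0.000928 to 0.361) and in incubation medium (0.33, adjusted p 0.0317, over alternatives from 0.0317 to 0.712) than in fresh cells, as was MT2A in DMEM/F12 (0.32, adjusted p 0.0476, over alternatives from 0.0476 to 0.564). All 3 had fractional counts in 12 of 12 libraries, so part of their reads was shared with other features and their levels are uncertain.

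Genes of iron storage and uptake rose against fresh cells, 3 of 3 in each medium. Over all genes 35.1% rose in DMEM/F12 and 35.8% in incubation medium. Ferritin light chain, FTL, measured 1513, 1791, 1404 and 2172 CPM in fresh cells, 5844, 6026, 6648 and 5801 in DMEM/F12 and 6344, 6100.3, 6834 and 6706 in incubation medium. It rose 3.53-fold (log2 1.82, SE 0.12, adjusted p 9.94e-09) and 3.78-fold (log2 1.92, SE 0.12, adjusted p 6.19e-09) with no overlap with the fresh libraries. Ferritin heavy chain, FTH1, which oxidises iron for storage, measured 2784, 2941, 2039.8 and 3103 CPM in fresh cells, 3538, 3981, 3963 and 4158 in DMEM/F12 and 3899, 3911, 3938 and 4738 in incubation medium. Its rise was smaller, 0.53 (SE 0.12, adjusted p 0.00114) and 0.60 (SE 0.12, adjusted p 0.000378). Both ferritin genes had fractional counts in 11 of 12 libraries and their levels are uncertain. TFRC, the transferrin receptor that brings iron in, measured 16.5, 13.3, 14.2 and 13.3 CPM in fresh cells, 50.2, 49.3, 57.7 and 42.0 in DMEM/F12 and 89.8, 124, 137 and 57.2 in incubation medium. It rose 3.46-fold (log2 1.79, SE 0.23, adjusted p 8.86e-06) and 7.10-fold (log2 2.83, SE 0.23, adjusted p 9.02e-08), and incubation medium exceeded DMEM/F12 by 1.03 (SE 0.20, adjusted p 0.00212) although incubation medium replicate 4 lay below DMEM/F12 replicate 3.

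Set directly against each other, the media differed in 14 of the 47 genes: 8 were higher and 6 lower in incubation medium. Of all tested genes 12.7% were higher and 12.3% lower. The median log2 difference of the redox genes was 0.08 with a range from -2.89 to 1.59, against -0.003 for all genes, and 13 of the 47 did not overlap, against 26.9% of all genes. The 8 higher genes were GCLC, PRDX6, TFRC, GSTO1, PRDX3, PRDX4, TXNDC17 and SOD2. The 6 lower genes were SOD3, MT2A, TXNDC16, MT1A, CAT and PRDX2. Pairing libraries by number raised these counts to 11 higher and 8 lower, and the shares over all genes to 16.6% and 16.2%.

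**Figure D5:**
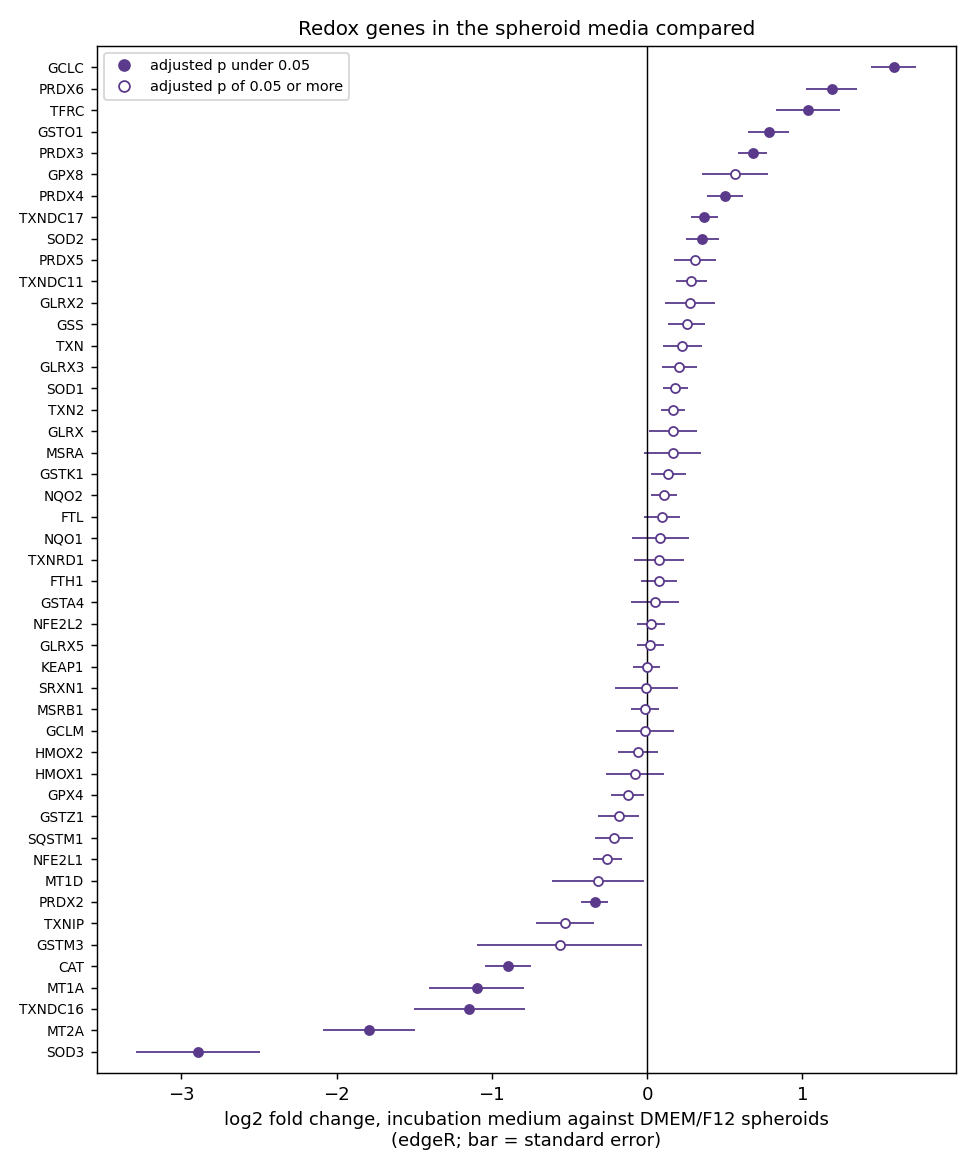
Log2 fold change (x axis, log2 units) of the 47 tested redox genes in incubation medium against DMEM/F12 spheroids, ordered by value; bars are the standard error from edgeR and filled points have an adjusted p under 0.05. SOD3 and MT2A stand alone at the low end at -2.89 and -1.79, and GCLC, PRDX6 and TFRC lead the high end at 1.59, 1.19 and 1.03.

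Other genes that feed or surround these systems were read from lists of textbook members, some of which share genes. Their counts are read beside the shares of all tested genes, 35.1% higher and 35.7% lower in DMEM/F12, 35.8% and 35.8% in incubation medium, and 12.7% and 12.3% between the media. NADPH, the electron source of both thioredoxin and glutathione reduction, is supplied by the pentose phosphate pathway and related enzymes, and all 6 genes tested of 9 listed rose in each medium against fresh cells, with median log2 fold changes of 0.98 and 1.14. Transketolase (TKT) averaged 69.2 ± 4.40 CPM in fresh cells (± SD, n = 4), 293 ± 17.2 in DMEM/F12 and 630.1 ± 71.7 in incubation medium (log2 2.08 and 3.19). Transaldolase (TALDO1) rose by 0.88 and 1.14 and the mitochondrial isocitrate dehydrogenase IDH2 by 0.90 and 1.14 on the log2 scale. Between the media 3 of the 6 were higher in incubation medium, TKT by 1.10, and 1 was lower, the cytosolic isocitrate dehydrogenase IDH1, at -0.37.

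For cystine uptake and glutathione turnover, 4 of 13 tested genes rose and 5 fell in DMEM/F12 spheroids (median log2 0.018), 7 rose and 4 fell in incubation medium spheroids (median 0.27), and 7 were higher and 1 lower in incubation medium than in DMEM/F12 (median 0.55). The peptidase ANPEP averaged 96.8 ± 12.8 CPM in fresh cells, 141 ± 49.0 in DMEM/F12 and 361 ± 62.3 in incubation medium. SLC3A2, the heavy chain of several amino acid transporters, did not pass the test between fresh cells and DMEM/F12 (log2 0.018, adjusted p 0.913) and was higher in incubation medium than in either (0.90 and 0.88). LAP3, a leucine aminopeptidase, changed by -0.38 and 0.17 against fresh cells. The next 4 were chosen after their values were seen. The cystine transporter SLC7A11 averaged 25.7 ± 6.71 CPM in fresh cells, 11.5 ± 3.36 in DMEM/F12 (log2 -1.16, adjusted p 0.00120) and 19.7 ± 6.93 in incubation medium (log2 -0.39, adjusted p 0.185), the former a fall and the latter not called. The enzymes that make cysteine from methionine rose in both media: CTH averaged 9.61 ± 1.81, 51.8 ± 8.42 and 49.7 ± 8.02 CPM in the same order, and CBS 1.83 ± 0.742, 7.13 ± 1.03 and 26.9 ± 4.93 CPM. CHAC1, which breaks glutathione down, averaged 8.51 ± 2.60, 25.2 ± 6.65 and 46.7 ± 5.74 CPM and was also higher in incubation medium than in DMEM/F12 (log2 0.89, adjusted p 0.00263).

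Among NRF2 partners and further targets, 7 of 13 tested genes rose and 3 fell in DMEM/F12 spheroids (median log2 0.33), and 6 rose and 3 fell in incubation medium spheroids (median 0.24). Between the media 4 were higher and 1 lower in incubation medium. RBX1, part of the ubiquitin ligase that marks NRF2 for breakdown, rose by 0.50 and 0.65 on the log2 scale, and CBR1, a carbonyl reductase, changed by -0.56 and -0.75. PIR averaged 23.8 ± 6.04 CPM in fresh cells, 40.9 ± 9.52 in DMEM/F12 and 99.9 ± 22.3 in incubation medium. A pair of targets with opposite directions was singled out after their values were seen. CBR3, a carbonyl reductase, rose from 0.232 ± 0.178 CPM in fresh cells to 11.6 ± 4.31 in DMEM/F12 and 3.76 ± 1.17 in incubation medium. Its fresh mean lies under the floor of 3 counts, which is 0.522 to 0.588 CPM in the fresh libraries, so the size of its rise is uncertain. OSGIN1, an oxidative stress induced growth inhibitor, fell from 90.3 ± 16.6 CPM in fresh cells to 12.4 ± 1.94 and 12.3 ± 1.44.

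Zinc and copper handling showed 8 of 14 tested rows higher and 3 lower in each medium against fresh cells (median log2 0.40 and 0.58). In incubation medium against DMEM/F12, 1 was higher and 3 were lower. MTF1, the zinc sensor that drives metallothionein genes, averaged 30.4 ± 1.22 CPM in fresh cells, 37.7 ± 5.40 in DMEM/F12 and 27.9 ± 1.73 in incubation medium, lower in incubation medium than in DMEM/F12 (log2 -0.43, adjusted p 0.00608). SLC39A10, which imports zinc, averaged 36.2 ± 3.55, 29.3 ± 2.83 and 84.9 ± 14.1 CPM in that order of groups, and the difference between the media was 1.53 (adjusted p 2.57e-06). SLC30A1, the zinc exporter of the plasma membrane and another MTF1 target, was named after its values were seen: it averaged 37.9 ± 5.71, 25.2 ± 3.02 and 5.29 ± 1.27 CPM, and between the media it was -2.25 (adjusted p 1.35e-06). The copper chaperone ATOX1 rose by 0.57 and 0.93 and the copper importer SLC31A1 changed by -0.76 and -0.59 on the log2 scale.

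In iron and heme handling, 5 of 13 tested genes rose and 4 fell in each medium against fresh cells (median log2 0.24 and 0.034), and 4 were higher and 1 lower in incubation medium against DMEM/F12; the counts against fresh cells lie near the shares of all genes. ACO1, the iron-responsive protein that governs ferritin and TFRC messages, averaged 72.0 ± 6.83 CPM in fresh cells, 381 ± 59.2 in DMEM/F12 and 599 ± 34.3 in incubation medium. Lactoferrin (LTF), an iron-binding secreted protein, averaged 270.2 ± 20.8, 28.5 ± 10.8 and 70.7 ± 11.5 CPM, the iron chaperone PCBP1 542 ± 43.5, 817 ± 39.1 and 854 ± 30.6 CPM, and biliverdin reductase BLVRB 19.8 ± 2.14, 89.9 ± 14.0 and 129 ± 16.4 CPM. Ferroportin (SLC40A1), the iron exporter, and the metalloreductase STEAP4 were named after their values were seen. They averaged 45.0 ± 7.32, 7.35 ± 3.43 and 7.15 ± 3.07 CPM and 117 ± 21.8, 6.41 ± 1.16 and 16.9 ± 3.69 CPM, and all 4 differences from fresh cells were called.

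Oxidant-producing oxidases were tested for 6 of 20 listed genes, of which 4 rose and 2 fell in DMEM/F12 and 2 rose and 2 fell in incubation medium (median log2 0.33 and 0.30). Monoamine oxidase A (MAOA) averaged 140.1 ± 25.8, 45.2 ± 5.31 and 51.4 ± 8.65 CPM in fresh cells, DMEM/F12 and incubation medium, and NOXA1, an activator of NADPH oxidase, 16.8 ± 1.84, 22 ± 1.63 and 29.5 ± 6.16 CPM. Of the other antioxidant and repair enzymes, 9 of 19 rose and 6 fell in DMEM/F12 and 10 rose and 5 fell in incubation medium (median 0.28 and 0.43). The microsomal glutathione transferase MGST1 averaged 313 ± 19.5, 387 ± 35.9 and 679 ± 18.1 CPM, and the DNA repair and redox protein APEX1 133 ± 13.7, 166 ± 14.0 and 279 ± 23.3 CPM. Selenoprotein genes showed 3 of 9 higher and 1 lower in DMEM/F12 and 4 higher and 1 lower in incubation medium (median 0.059 and 0.32), with SELENON at 1.32 and 0.98 and the selenium-binding protein SELENBP1 at -1.21 and -1.08 on the log2 scale. For oxidative folding in the endoplasmic reticulum, 3 of 14 rose and 8 fell in DMEM/F12 spheroids, 5 rose and 5 fell in incubation medium spheroids, and 6 were higher in incubation medium against DMEM/F12 (median -0.33, 0.11 and 0.31). The disulfide isomerase PDIA6 averaged 578 ± 112, 289 ± 29.3 and 372 ± 24.3 CPM, and PDIA4 375 ± 77.5, 192 ± 14.5 and 251 ± 23.1 CPM.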

How the data were processed

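The submitters' processing notes name fastp 0.24.0, STAR 2.7.11, SAMtools 1.22.1 and featureCounts of Subread 2.1.1; the genome build, annotation and strand setting are not given in the sources used here. Expected counts of each gene were deposited for every library, as the values show: 19.1 to 20.5% of the nonzero counts of a library were fractional, because reads had been shared between features. They were rounded to whole numbers, although the planned test had assumed raw counts. A deposited CPM column stands beside each count and was not used; CPM printed here are rounded counts over TMM-scaled library sizes. The 92 spike-in rows, at most 0.000614% of a library, were left out. Gene symbols are the table's own, and 0 of its identifiers matched the pig gene tables at hand, so no positions are given.

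Genes were tested with edgeR 4.0.16 in R 4.3.3 (filterByExpr, TMM, quasi-likelihood F-tests) in 1 fit of 12 libraries with a mean per group and Benjamini-Hochberg adjustment over 14070 genes. The floor is 3 counts. It covers counting error only, since amplified reads are not independent molecules. Replicate numbers come from the labels, and deviations of same-numbered libraries from their group means correlated at 0.196 to 0.516 in all pairs. Other pairs correlated at most at 0.02. Centring on group means pushes these other values down once same-numbered libraries correlate, so they are no separate evidence. The numbers were taken to pair the libraries only in the alternative fit with a replicate block. The main fit does not pair them. Replicates of a group correlated at 0.974 to 0.985 and none agreed within counting noise. The fit was run on simulated counts in which few genes changed and libraries were not paired. Against fresh cells most genes here were called and same-numbered libraries deviated together, so that run does not cover these conditions. The redox genes and all lists were chosen with earlier results of these data known. Values per library are given for fixed genes of each role and for up to 5 genes per direction with the largest called changes, a mean of at least 5 CPM and no overlap, and also for GLRX3, GSTM3, NQO2 and MT1D, chosen after their values were seen; listed pathway genes are up to 3 called ones by mean CPM. Alternatives were library totals, DESeq2 size factors, DESeq2 1.42.0, other filters, only the groups compared, a replicate block, whole-count genes, thinned counts (chosen after seeing the data) and leaving out each library.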

Additional observations from a re-analysis of the deposited data

Results flagged for a closer look

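SOD3 moved in opposite directions in the spheroid media, higher than fresh cells in DMEM/F12 and lower in incubation medium, and the difference between the media itself passed edgeR's test at a log2 fold change of -2.89 (adjusted p 0.000161).

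Among 141 groups of 4 libraries (47 genes in 3 groups), 7 held a library far from the other 3 of its group, measured by the gap to its neighbour relative to the group's range; chance flags about 1 in 20 groups. These were NFE2L2 in DMEM/F12 replicate 1 (176 CPM, next 143), SOD2 in incubation medium replicate 2 (179 CPM, next 147), TXN in DMEM/F12 replicate 3 (2134 CPM, next 1605), SQSTM1 in fresh replicate 2 (373 CPM, next 300.4), FTH1 in incubation medium replicate 4 (4738 CPM, next 3938), GCLM in DMEM/F12 replicate 1 (36.4 CPM, next 23.0) and, as the only low one, GLRX5 in incubation medium replicate 2 (33.0 CPM, next 37.7).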

How the results depend on the processing

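Counts of called redox genes stayed within 1.5 times the reported ones under every alternative but the restriction to genes with whole counts in all libraries, which leaves 13 of the 47: there 8 rose and 3 fell in DMEM/F12, 8 rose and 4 fell in incubation medium, and 4 were higher and 3 lower between the media, since fewer genes were tested. Leaving out each library in turn gave 22 to 25 rising and 12 to 13 falling in DMEM/F12, 24 to 27 and 14 to 16 in incubation medium, and 7 to 9 higher and 4 to 7 lower between the media. With the replicate block, 25 rose and 13 fell in DMEM/F12, 27 and 16 in incubation medium, and 11 and 8 differed between the media; the block changed no call of the 47 genes other than those given above. With library totals in place of TMM, the share of higher calls over all genes between the media went from 50.9% to 33.4% and the median of all genes moved to -0.097, with 7 redox genes higher and 8 lower. Of the uncalled differences, 16 genes gained a call under at least 1 alternative. Beside those given above, TXN between the media was called without DMEM/F12 replicate 3 (0.36). No called redox gene changed sign. Uncalled differences near 0 did. With library totals these were, between the media, TXNRD1 (-0.010), NFE2L2 (-0.073), NQO1 (-0.0063), FTH1 (-0.018), GSTA4 (-0.047) and GLRX5 (-0.075), and TXN2 in DMEM/F12 against fresh cells (0.066, and 0.062 without a filter). Between the media SRXN1 turned with the block (0.012) and thinned counts (0.010), KEAP1 with the block (0.00049) and whole counts (0.011), MSRB1 (0.017) and NQO2 (-0.031) with thinned counts. Leaving out single libraries moved, between the media, SRXN1 from -0.063 to 0.11, KEAP1 from -0.037 to 0.029, GCLM from -0.16 to 0.20, MSRB1 from -0.088 to 0.030, NFE2L2 from -0.024 to 0.11, HMOX1 from -0.23 to 0.068, HMOX2 from -0.19 to 0.013, GSTA4 from -0.015 to 0.13, NQO1 from -0.089 to 0.25, TXNRD1 from -0.020 to 0.23 and MT1D from -0.48 to 0.064, TXN2 in DMEM/F12 from -0.052 to 0.032 and MSRA in incubation medium from -0.21 to 0.032; the cause was not tested. Depth limits the low genes TXNDC16, GSTT4, GSTO2 and MSR1.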

Other observations

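Several redox genes had the same replicate number highest or lowest in all 3 groups. Of the 47 tested genes, 11 had the same replicate highest and 8 the same replicate lowest in every group. Replicate 4 was lowest in each group for SOD1, GPX4, TXN, TXNRD1 and GCLC, replicate 1 was highest for SOD1, CAT, PRDX5, TXNDC11, GCLM and NFE2L2, and replicate 3 was highest for GPX4, GLRX3 and GSTO1. For 3 genes, all of them metallothioneins, replicates 1 and 4 both lay above 2 and 3 in every group. What a replicate number marks is not stated in the labels.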
